A study of Mus musculus with 6 samples.

Results

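The genes described here encode histone-modifying enzymes. They were taken by name: every protein-coding RefSeq gene on the mouse build GRCm38 whose symbol is Kdm, Kmt, Setd, Hdac, Sirt, Kat or Prmt followed by a number. This rule found 68 of 21896 protein-coding genes, and it used no measured value. A RUNX1 peak was assigned to a gene when its summit lay inside the gene or within 10 kb of either end, and the other 21828 protein-coding genes were treated in the same way. A peak near a gene is a position on the chromosome and says nothing of whether the gene is expressed or controlled by RUNX1.

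The peaks came from chromatin immunoprecipitation and sequencing (ChIP-seq) with a RUNX1 antibody in granulosa cells, the somatic cells that surround the oocyte, from CBA x C57BL/6 F1 mice aged 21 days. All mice received 5 IU of eCG, a hormone that drives follicle growth, and the protocol gives 5 IU of hCG, a hormone that acts on the luteinising hormone receptor and triggers ovulation, after 46 h. The 0 h group is labelled as pre-ovulatory and the 6h post-hCG group as peri-ovulatory, with 2 RUNX1 libraries and 1 pooled input in each, and the protocol text is the same for every sample and describes only collection at 6 h. The labels do not say whether the replicates came from separate mice, so any p-value measures only the spread between libraries.

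Histone-modifying enzymes add or remove acetyl and methyl groups on histone tails. Acetyltransferases (Kat genes) and deacetylases (Hdac and Sirt genes) set acetylation, which goes with open chromatin. Methyltransferases (Kmt, Setd and Prmt genes) and demethylases (Kdm genes) set methylation, whose effect depends on the residue: H3K4 methylation marks active promoters and enhancers, while H3K9 and H3K27 methylation mark silent chromatin. RUNX1 is a DNA-binding transcription factor that recruits several of these enzymes as proteins, and in granulosa cells RUNX factors are known for their rise around ovulation.

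The deposited peak lists differed in length, with 948 and 3135 peaks at 0 h and 18761 and 28671 at 6 h. The sequencing depth was not stated. The genome-wide background recovered from the lists, the number of ChIP reads expected at a position with no binding, came to 2.77 reads in 0 h replicate 1, 2.65 in 0 h replicate 2, 2.76 in 6 h replicate 1 and 2.13 in 6 h replicate 2. Of the granulosa markers Foxl2, Fshr, Cyp19a1, Amh, Inha and Inhbb, 3 of 6 had a peak in both 0 h libraries and 5 of 6 in both 6 h libraries, where the shares of all coding genes outside the enzyme set were 4.13% and 53.3%. Of the genes listed as theca markers, 2 of 4 (Lhcgr and Ptch1) had peaks in both 0 h libraries and 3 of 4 in both 6 h libraries. The listing does not make Lhcgr or the others specific to theca cells. No leukocyte, endothelial or oocyte marker had them in both 0 h libraries, while 4 of 5, 2 of 4 and 1 of 4 had them in both 6 h libraries. Peaks cannot show which of these genes the cells expressed, so the cell label was not checked on expression.

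Nearly every histone-modifying enzyme gene had RUNX1 peaks at 6 h, and few had them at 0 h. Peaks were called near 8 of the 68 genes (11.8%) in 0 h replicate 1, against 4.38% of other protein-coding genes, and near 24 (35.3%) in 0 h replicate 2, against 15.1%. At 6 h they were called near 61 (89.7%) in replicate 1, against 53.6%, and near 66 (97.1%) in replicate 2, against 62.4%. The share was therefore above that of other coding genes in each of the 4 libraries, by 7.39 and 20.2 percentage points at 0 h and by 36.1 and 34.7 points at 6 h. Both 6 h libraries lay above both 0 h libraries in the share of these genes with a peak.

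**Figure D1:**
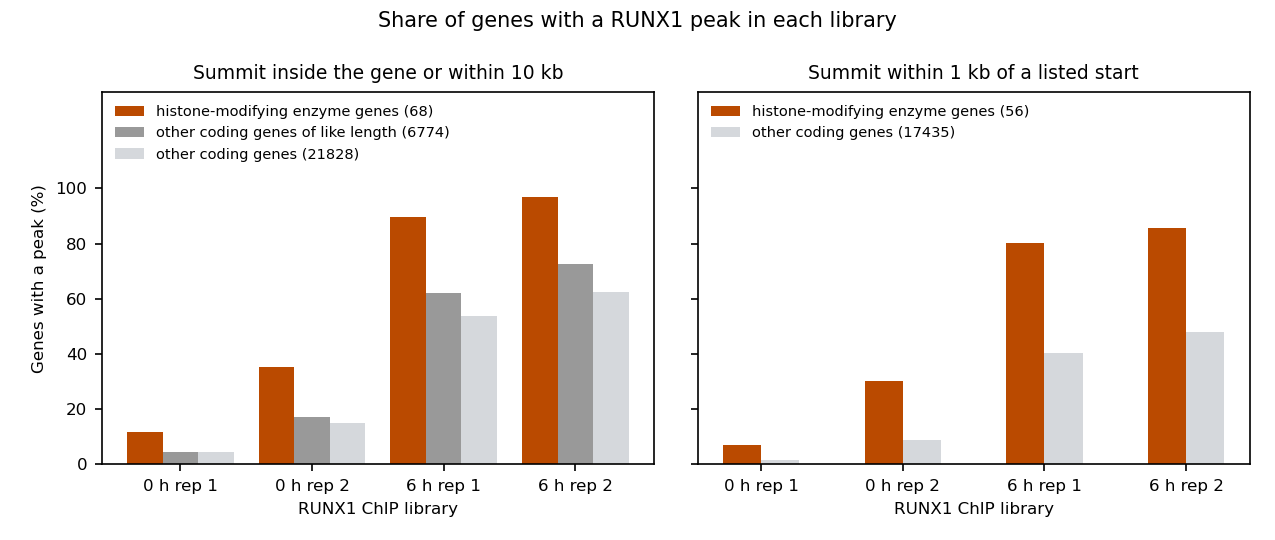
Share of genes with a RUNX1 peak in each library. The left panel counts summits inside the gene or within 10 kb for the 68 histone-modifying enzyme genes, for 6774 other coding genes of like length and for all 21828 other coding genes; the right panel counts summits within 1 kb of a listed start. Bars start at 0 and are single values per library, without error bars; the histone-modifying enzyme genes have the highest bar in each library of both panels.

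The mean share was 23.5% ± 16.6 (SD, n = 2) at 0 h and 93.4% ± 5.20 (SD, n = 2) at 6 h, a difference of 69.9 points (exact permutation test over libraries, two-sided, p = 0.333, the smallest p that 2 libraries against 2 can give; 5 such differences were tested, and Benjamini-Hochberg adjustment gave 0.417 for the 4 with this p). The excess over other coding genes was 13.8 ± 9.09 points at 0 h and 35.4 ± 0.972 points at 6 h, a difference of 21.6 points (exact permutation p = 0.333). Both differences moved with the length of the lists. With the 948 peaks of highest fold taken from each list, peaks lay near 8 and 11 of the enzyme genes at 0 h and near 9 and 8 at 6 h, and the time difference in their share was -1.47 points. Other coding genes then gave 4.38% and 4.74% for the 0 h lists, 4.67% and 3.95% for the 6 h lists, so the enzyme genes (11.8%, 16.2%, 13.2% and 11.8%) stayed above them in all 4 libraries, while the time points overlapped.

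These genes are long, with a median of 39642.5 bp against 17088 bp for other coding genes, and a longer gene offers more room for a summit. In peaks per Mb of gene and flank the enzyme genes held 1.36, 5.45, 23.0 and 31.7 in the 4 libraries, 0 h first, against 0.571, 2.10, 12.4 and 18.005 for other coding genes. The ratio came to 2.39 and 2.60 for the 0 h lists, then 1.86 and 1.76 for the 6 h lists, so the excess in density was lower in both 6 h libraries than in either 0 h library. On the log2 scale the 0 h mean ratio of 1.32 ± 0.09 (SD, n = 2) and the 6 h mean of 0.86 ± 0.06 (SD, n = 2) gave a difference of -0.46 (exact permutation p = 0.333). This order was lost with the 948 highest peaks of each list, where the ratios were 2.39 and 3.46 at 0 h against 2.61 and 2.78 at 6 h (difference in log2 -0.09, exact permutation p = 1). It was also lost at a −log10 q of at least 20, with 1.39 and 3.02 against 2.00 and 1.91 (difference in log2 -0.07, exact permutation p = 1). Among the 34 enzyme genes between the quartiles of their own length, 14.7%, 44.1%, 94.1% and 94.1% had a peak in 0 h replicates 1 and 2 and 6 h replicates 1 and 2. Other coding genes of those lengths gave 4.38%, 17.1%, 62.1% and 72.5%.

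Counted gene by gene over replicates, 8 enzyme genes (11.8%) had a peak in both 0 h libraries, against 4.13% of other coding genes, and 61 (89.7%) in both 6 h libraries, against 53.3%. A peak in both 6 h libraries and in no 0 h library was found for 37 genes (54.4%), against 38.1%. No library had a peak near 2 genes (2.94%), against 37.2%. For 53 genes (77.9%) each 6 h library held more peaks than each 0 h library, against 46.8%. The replicates nested: none of the 8 genes of 0 h replicate 1 was missing from replicate 2, which added 16 more. The peaks formed 192 sites when overlapping intervals were merged, of which 8 were called in all 4 libraries, 120 in both 6 h libraries and 71 in 1 of the 6 h libraries and not the other. A single site, inside Kdm4a at chr4:118164689-118164939, was called at 0 h alone, in replicate 2 with a fold of 9.32. For 139 of the 192 sites (72.4%) the enzyme gene was the nearest coding gene in each library with a peak there; at the other sites a neighbour was nearer to the summit of at least 1 library.

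**Figure D2:**
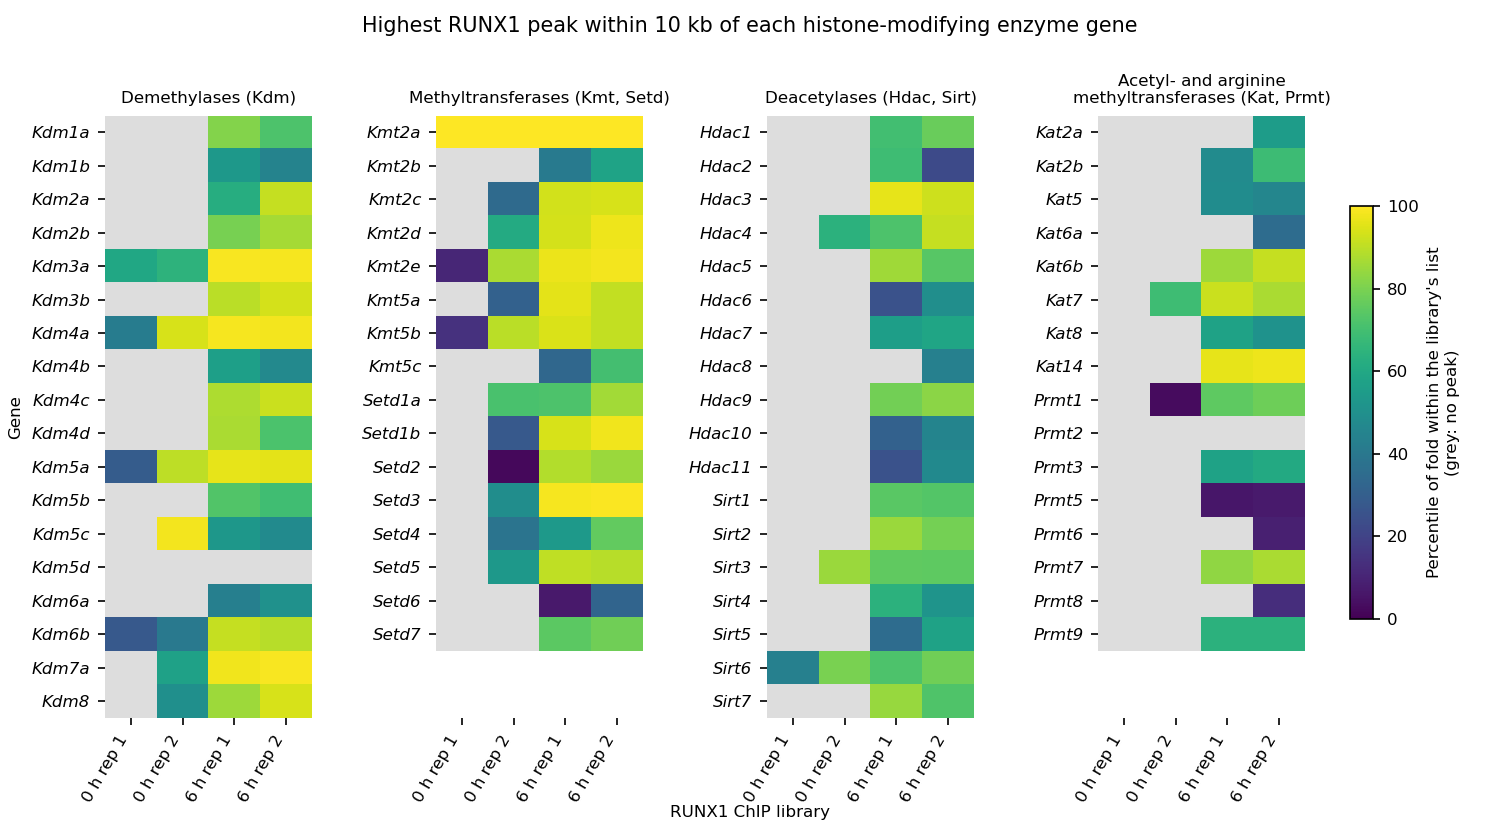
Highest RUNX1 peak near each of the 68 genes in each library. Rows are genes grouped by enzyme class, columns are the 4 libraries, colour is the percentile of the peak's fold within its own list and grey is no peak; the 0 h columns are mostly grey, 61 genes are coloured in both 6 h columns, and Kdm5d and Prmt2 are grey throughout.

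The fold of a peak is the authors' value, the ChIP pileup over the local background, and it ranks peaks within a list but cannot be compared between lists. The percentile is the peak's rank by fold within its list, with 100 at the top. At 6 h the highest peak of an enzyme gene had a median mean percentile of 78.6 over the 61 genes with peaks in both libraries, against 68.4 for 11624 other coding genes. The enzyme genes also had more peaks to take the highest from, with a median over all genes of each group of 2 peaks against 1 in each 6 h library. Of the 61, 16 (26.2%) lay above percentile 90, against 16.7%, and 10 (16.4%) above percentile 95, against 8.0%. All peaks of the enzyme genes together, not only the highest, had median percentiles of 35.6 and 51.8 in the 0 h lists, then 56.1 and 51.3 in the 6 h lists, a difference of 10.03 between the means of 43.7 ± 11.4 and 53.7 ± 3.35 (SD, n = 2 each) that lay within the spread of the 0 h libraries (exact permutation p = 0.667). The direction of this difference turned at a −log10 q of at least 20 (-9.35), and without 0 h replicate 1 it was 1.94. For other coding genes these medians were 46.6 and 48.3 for the 0 h lists, then 49.5 and 49.3 for the 6 h lists.

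**Figure D3:**
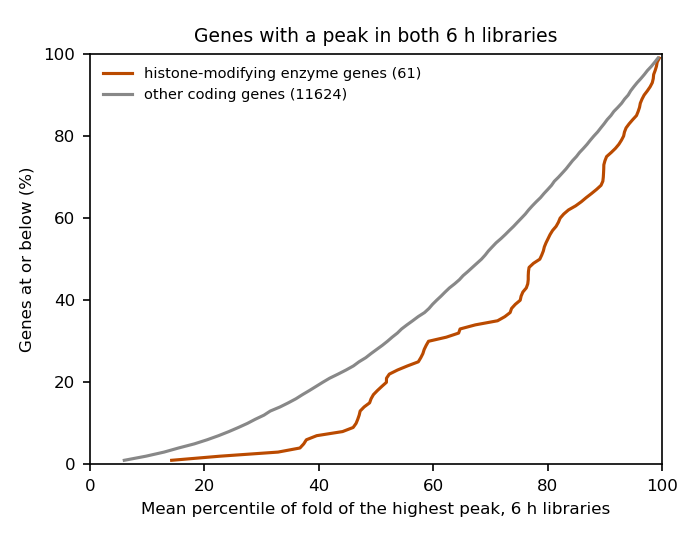
Cumulative share of genes by the mean percentile of fold of their highest peak in the 6 h libraries. The x axis is the percentile, the y axis the percentage of genes at or below it, and the lines are the 61 histone-modifying enzyme genes and 11624 other coding genes with a peak in both libraries; the enzyme genes' line lies to the right at the middle, with medians of 78.6 and 68.4.

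Kmt2a carried the highest RUNX1 peak of the group in each of the 4 libraries. It encodes the MLL1 methyltransferase, which methylates H3K4 at active promoters and enhancers and whose protein binds RUNX1. The gene lies on the minus strand at chr9:44803355-44881352. The peak just upstream of its start had a fold of 28.8 in 0 h replicate 1, 51.8 in 0 h replicate 2, 54.0 in 6 h replicate 1 and 102 in 6 h replicate 2. It ranked 2nd, 1st, 15th and 1st in those lists, so it stood at or near the top of all 4 lists. Counted from the start, with negative values upstream, the summits fell at -189, -187, -209 and -174 bp, close to each other in all 4 libraries. They also lie inside the RefSeq lncRNA Gm39326, which spans the start. The part of the 300-base promoter window (250 bases before to 50 after the start) that lies upstream of the annotated gene is shown because it holds the 4 summits. It is from RefSeq GRCm38.p6 and read 5′ to 3′ on the minus strand. No capitals appear because TGTGGT and TGCGGT, the letters of the core RUNX motif, are on neither strand of the window:
Kmt2a promoter, chr9:44881353-44881539, minus strand: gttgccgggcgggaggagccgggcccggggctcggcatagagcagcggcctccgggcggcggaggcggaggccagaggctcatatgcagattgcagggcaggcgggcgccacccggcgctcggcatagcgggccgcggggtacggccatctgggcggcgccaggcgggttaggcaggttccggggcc

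The reads at that summit, unlike the fold, can be set over the genome-wide background of the same library. The Kmt2a summit held 111 and 194 reads at 0 h and 202 and 320 at 6 h, which is 40.1 and 73.2 times the background at 0 h and 73.2 and 150 times at 6 h. 0 h replicate 2 and 6 h replicate 1 were almost equal, and the time points overlapped on this scale. For the other 7 sites called in all 4 libraries, both 6 h values lay above both 0 h values. That gives 7 of 8, against 92.3% of 621 regions near other coding genes called in all 4 libraries, so such an increase was common to these regions. The ratio of the 6 h mean to the 0 h mean was 1.97 for Kmt2a, the lowest of the 8, and 7.10 for Kdm4a, the highest. The median of the 8 was 3.86, close to the 3.75 of the other regions (quartiles 2.55 and 4.93). Since a region must pass the p-value limit in both 0 h libraries to be counted, these ratios describe only regions already called at 0 h. Not all of them ranked high there. In 0 h replicate 1 the 8 sites ran from percentile 10.7 (Kmt2e) to 99.8 (Kmt2a) of the list.

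Of the demethylase genes, Kdm3a, Kdm4a, Kdm5a and Kdm6b had peaks in all 4 libraries. Kdm3a removes H3K9 methylation. Its site, chr6:71632515-71633689, had summits at -507, -391, -506 and -401 bp from its start, with 40 and 52 reads at the summit at 0 h and 133 and 156 at 6 h. Relative to background that is 14.4 and 19.6 times at 0 h and 48.2 and 73.2 times at 6 h, with no overlap between the time points. Within its lists it stood at percentiles 59.7 and 64.8 at 0 h and at 99.1 and 98.8 at 6 h, but ranks from lists of such different length show no change.

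Kdm4a removes H3K9 and H3K36 methylation. The site with peaks in all libraries, chr4:118134281-118135703, lies beyond the finish of the gene, where the sialyltransferase gene St3gal3 is the nearest coding gene, with its end 17 to 230 bp from the summits. It had 10.8 and 20.4 times the background at 0 h and 95.7 and 126 times at 6 h. Kdm5a removes H3K4 methylation. Its site at chr6:120363538-120364821 had 13.7 and 24.9 times the background at 0 h and 67.4 and 91.1 times at 6 h, and it covers the overlapping ends of Kdm5a and Ccdc77. Kdm6b removes the silencing mark H3K27 methylation. Its site inside the gene at chr11:69417145-69419735 had 11.9 and 14.7 times the background at 0 h and 49.6 and 65.3 times at 6 h. For Kdm4a and Kdm5a the position does not tell which of the neighbouring genes the peak belongs to.

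The other 3 genes with peaks in all libraries were Kmt2e, Kmt5b and Sirt6. Kmt2e encodes a member of the MLL family. Its site, chr5:23432443-23435576, at an end where the gene overlaps the lncRNA 5031425E22Rik, had 12.3 and 20.8 times the background at 0 h and 77.2 and 101 times at 6 h. Kmt5b methylates H4K20. Its site, chr19:3767372-3769001, with summits 122 to 410 bp after the start, had 11.6 and 16.98 times the background at 0 h and 40.2 and 46.9 times at 6 h. Sirt6 is a nuclear deacetylase that uses NAD. Its start carried a site, chr10:81626870-81628093, with summits between -13 and 5 bp from the start and 13.7 and 18.1 times the background at 0 h and 44.2 and 70.9 times at 6 h. In each of these 3 genes the time points did not overlap.

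**Figure D4:**
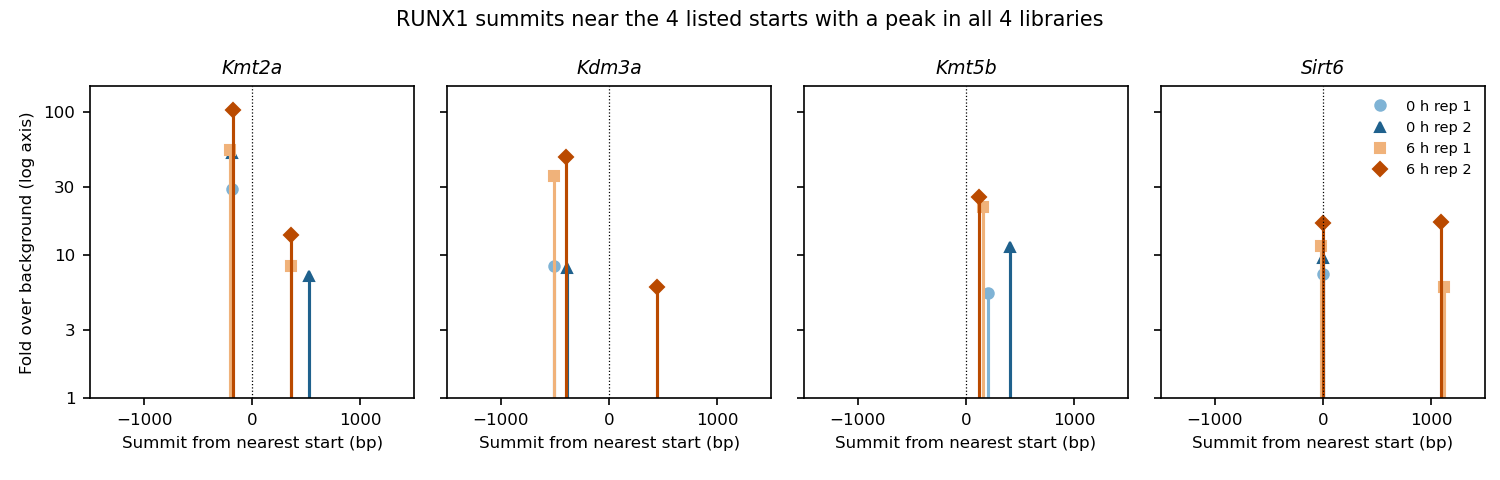
RUNX1 summits around the starts of Kmt2a, Kdm3a, Kmt5b and Sirt6. The x axis is the distance from the nearest listed start in bp (negative is upstream), the log y axis is the authors' fold over local background, and colour and symbol mark the library (folds rank peaks within a library only); at Kmt2a the 4 highest summits lie between -209 and -174 bp with folds from 28.8 to 102.

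Across the demethylases, 17 of 18 Kdm genes had peaks in both 6 h libraries, against 53.3% of other coding genes, and 4 in both 0 h libraries, against 4.13%. The exception at 6 h was Kdm5d, an H3K4 demethylase gene with a peak in no library; it lies on the Y chromosome, which female mice lack. Its X-linked relative Kdm5c, singled out here after its values were seen, had no peak in 0 h replicate 1, a fold of 17.8 in 0 h replicate 2 (percentile 98.1) and folds of 8.91 and 10.4 at 6 h (percentiles 53.0 and 47.9). In reads at the summit over the genome-wide background, 0 h replicate 2 (24.9 times) lay between the 6 h libraries (21.0 and 34.7 times). These values were not all read at 1 position. The summits of 0 h replicate 2 and 6 h replicate 2 were at -306 and -307 bp from the start. That of 6 h replicate 1 was 208 bp after it. At the shared position 6 h replicate 2 was above 0 h replicate 2, with 1 library per time point. All 7 genes for H3K9 demethylases had peaks in both 6 h libraries, with a median mean percentile of 91.6, as had both H3K27 and both H3K36 demethylase genes. Kdm7a, which acts on H3K9 and H3K27, stood near the top at 6 h with folds of 28.7 and 50.7 at 1193 and 1207 bp after its start. At 0 h it had a peak in replicate 2 only, with a fold of 7.67. Kdm3b, a relative of Kdm3a, had its highest peaks at different sites in the 6 h libraries, with folds of 17.5 inside its own end and 29.3 nearer to Reep2.

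All 8 Kmt genes, which are named for lysine methyltransferases, and all 8 Setd genes, which are named for the SET domain, had peaks in both 6 h libraries, against 53.3% of other coding genes. The median mean percentile of the highest peak was 93.4 for the Kmt genes, the top value of the 7 symbol groups, and 82.9 for the Setd genes. At 0 h, 3 Kmt genes and no Setd gene had them in both libraries, against 4.13%, and 6 of the 8 Setd genes had a peak in 0 h replicate 2, against 15.1%. Kmt2c and Kmt2d encode the MLL3 and MLL4 enzymes that place H3K4 methylation at enhancers. Kmt2c had folds of 20.2 and 29.6 at 6 h upstream of its start and 6.57 in 0 h replicate 2. Kmt2d had 20.7 and 39.6 at 6 h and 7.92 in 0 h replicate 2, but at its finish, where the end of Prkag1, a subunit gene of the AMP-activated kinase, was 17 and 3 bp from the 6 h summits. Setd1b, another H3K4 methyltransferase gene, had folds of 21.3 and 41.8 at 6 h, at summits that lie inside the neighbouring Rhof. Of the 6 genes listed as H3K4 methyltransferases, 5 had a peak in 0 h replicate 2 and 6 in both 6 h libraries.

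Setd3 came after Kmt2a by mean percentile at 6 h (99.13), with folds of 33.5 and 56.8 at 6 h and 7.19 in 0 h replicate 2; in 6 h replicate 1 Kdm3a was higher, with a fold of 35.6. Setd3 methylates actin, so its inclusion rests on the symbol and not on a histone substrate. Its 6 h summits fell at -389 and -391 bp from its start and inside Ccnk, the gene of cyclin K, which runs the other way. Kmt5a, the enzyme that places the first methyl group on H4K20, had folds of 23.9 and 25.2 at 6 h and 6.46 in 0 h replicate 2, none in 0 h replicate 1, with summits 22 to 45 bp upstream of its start.

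Of the 11 Hdac genes, which encode the zinc-dependent deacetylases, 10 had peaks in both 6 h libraries, against 53.3% of other coding genes, and Hdac8 had them in 6 h replicate 2 only. At 0 h none had a peak in replicate 1 and only Hdac4 had any in replicate 2, against 4.38% and 15.1% of other coding genes, so these counts are near the background. The class IIa genes Hdac4, Hdac5, Hdac7 and Hdac9, whose proteins shuttle between nucleus and cytoplasm, were all among the 10, with a median mean percentile of 80.3 against 68.4 for other coding genes. Hdac4, at chr1:91928779-92195702, held the most sites of any enzyme gene, 9 in all, with 2 peaks in 0 h replicate 2, 5 in 6 h replicate 1 and 9 in 6 h replicate 2. Its highest peak at 6 h had folds of 11.5 and 26.0 inside the gene, 27648 and 27642 bp from its nearer end. Hdac3, the catalytic subunit of the NCoR and SMRT corepressor complexes, had folds of 24.7 and 27.6 at 6 h and no peak at 0 h. In 6 h replicate 1 the most peaks, 6 each, were near Kdm2b and Setd1b. The Hdac3 summits were 1437 and 1400 bp outside Hdac3 and only 88 and 51 bp from an end of Diaph1.

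All 7 sirtuin genes had peaks in both 6 h libraries, against 53.3% of other coding genes, with a median mean percentile of 75.2 against 68.4, and Sirt6 was the only 1 with peaks in both 0 h libraries. Sirt3, a mitochondrial deacetylase, had a fold of 10.4 in 0 h replicate 2 and 12.3 and 16.0 at 6 h, with the 6 h summits within 4 bp of its start. The highest folds of the sirtuins at 6 h ran from 7.40 to 15.2 in replicate 1 and from 10.9 to 17.3 in replicate 2. None of them came near the folds of Kmt2a, Setd3 or Kdm3a.

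Among the acetyltransferases, 6 of 8 Kat genes had peaks in both 6 h libraries, against 53.3% of other coding genes, and none in both 0 h libraries, against 4.13%. Kat14, a subunit of the ATAC acetyltransferase complex, had the highest, with folds of 24.9 and 39.0 at 158 and 145 bp after its start and no peak at 0 h. The gene overlaps Pet117 there. Kat7, the HBO1 enzyme, was the only Kat gene with a 0 h peak, with a fold of 8.45 in replicate 2 and 19.1 and 21.7 at 6 h. Kat2a and Kat6a had a peak in 6 h replicate 2 only, with folds of 11.5 and 8.94.

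The arginine methyltransferase genes had the fewest peaks of the 7 symbol groups at 6 h, 10 in replicate 1 and 13 in replicate 2. Of the 8 Prmt genes, 5 had peaks in both 6 h libraries, Prmt6 and Prmt8 in 6 h replicate 2 only, with folds of 6.22 and 6.73, and Prmt2 in none. That is near the 53.3% of other coding genes with peaks in both 6 h libraries. Prmt5, the main enzyme for symmetric arginine methylation, had folds of 4.89 and 6.00 at 6 h, the lowest mean percentile (6.72) of the 61 genes with peaks in both. Prmt7 was the highest of the class, with folds of 14.5 and 21.8 at 6 h, at summits that lie inside the neighbouring Slc7a6os. The median mean percentile at 6 h was 64.3 for the Prmt genes and 65.4 for the Hdac genes, against 83.2 for the Kdm genes. These are counts of few genes and the classes were not tested against each other.

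RUNX1 protein is known to bind the products of Kmt2a, Kat6a, Prmt1, Prmt6, Hdac1 and Hdac3. Of these 6 genes, 4 had peaks in both 6 h libraries and 1, Kmt2a, in both 0 h libraries, where other coding genes gave 53.3% and 4.13%, so the 6 h count is near the background. Hdac1 had folds of 11.1 and 16.6 at 6 h, 87 and 180 bp outside its end. Prmt1, the main enzyme for asymmetric arginine methylation, had a fold of 4.44 in 0 h replicate 2 and 12.2 and 16.9 at 6 h. Apart from Kmt2a and Hdac3, the partner genes did not rank among the 15 enzyme genes with the highest 6 h peaks.

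Start and finish of a gene could be told apart for the 56 enzyme genes with a listed start in the RefSeq promoter table. A summit lay within 1 kb of a start in 4 and 17 of them at 0 h (7.14% and 30.4%) and in 45 and 48 at 6 h (80.4% and 85.7%). For 17435 other coding genes with a listed start the shares were 1.64% and 8.84% at 0 h, then 40.5% and 48.0% at 6 h. The same 45 (80.4%) counted in both 6 h libraries, against 39.8% of the other genes. Summits within 1 kb of the finish were found in fewer genes, in 0 and 2 at 0 h (0% and 3.57%) and in 3 and 6 at 6 h (5.36% and 10.7%). Other coding genes gave 0.143% and 0.545%, then 3.19% and 4.12%. The 3 in both 6 h libraries were Hdac4, Kmt2d and Sirt7. Not counted at a listed start in both 6 h libraries were Hdac7, Hdac8, Hdac9, Kat2a, Kdm5d, Prmt2, Prmt6, Prmt8, Setd5, Setd7 and Sirt4. For Setd5 and Sirt4 the only listed start lies inside the gene, and both had 6 h summits near the end opposite the finish. Their highest 6 h summits were 69 and 74 bp from that end at Setd5, and 269 and 201 bp at Sirt4. The highest Setd7 summits lay 1034 and 1287 bp after its start, beyond the limit of 1 kb.

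The starts of the enzyme genes are richer in CpG dinucleotides than those of other genes. A CpG-rich promoter window, with at least 0.6 of the CpG count its base composition would give, was found for 51 of the 56 (91.1%), against 50.7% of other coding genes. Within CpG-rich genes, a start peak in both 6 h libraries was found for 43 of 51 enzyme genes (84.3%) and 69.4% of other genes. The difference between the groups was thus 40.5 points over all genes with a listed start and 14.9 points within CpG-rich genes, a comparison chosen after the data were seen. Of the 5 enzyme genes with a CpG-poor listed start, Hdac8, Hdac9, Kat8, Setd5 and Sirt5, 2 had such a peak, against 9.38% of other CpG-poor genes. The Setd5 window is that of its listed start inside the gene, so it does not describe the end that carried the 6 h summits.

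Some peaks near the enzyme genes had a summit at most 1 kb from a gene end. At 0 h these were 6 of 8 peaks in replicate 1 (75.0%) and 23 of 32 in replicate 2 (71.9%). In the 6 h lists they made up 48.9% and 39.8% of the peaks near these genes. The 0 h shares rest on few peaks, and the SD between libraries does not include that counting error. The mean fell by 29.1 points, from 73.4% ± 2.21 to 44.3% ± 6.44 (SD, n = 2 each; exact permutation p = 0.333), with no overlap between the time points. With the 948 highest peaks of each list the time points overlapped. The shares were 75.0% and 83.3% for 0 h against 77.8% and 55.6% for 6 h. The mean fell by 12.5 points (exact permutation p = 0.667). These shares also rest on few peaks, near 8 and 11 enzyme genes at 0 h and near 9 and 8 at 6 h. For other coding genes this share took the values 40.1% and 58.3% for the 0 h lists, then 53.6% and 44.3% for the 6 h lists, so their time points did overlap. For genes with a listed start, some peaks were inside the gene and more than 1 kb from a listed start and from the finish. These were 0 of 5 and 2 of 28 peaks at 0 h (0% and 7.14%). At 6 h they were 19 of 107 and 44 of 148 (17.8% and 29.7%). This share was not set beside that of other coding genes, and the 0 h totals are small.

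The letters TGTGGT or TGCGGT, on either strand, were searched in the 300-base promoter windows. They were found in 18 of 77 windows of the enzyme genes (23.4%) and in 21.6% of 21185 windows of other coding genes. In windows with a summit of both 6 h libraries they were found in 12 of 23 (52.2%) for the enzyme genes and in 29.4% of 3079 for other genes. In windows with no 6 h summit they were in 5 of 44 (11.4%) and in 20% of 15660. A match is a description of the sequence and not proof of a bound site. The 12 windows overlap in part and hold 11 distinct matches in 10 genes. In 5 of the 11 matches the summits of both 6 h libraries lay within 50 bp of the letters, and these are shown for that reason. Each run is 30 bases of RefSeq GRCm38.p6 read 5′ to 3′ on the strand that carries the motif, with the motif in capitals:
Kdm2b, chr5:122900478-122900507, plus strand: gggagcccggccTGTGGTgacacgggggcg
Kmt5a, chr5:124439902-124439931, plus strand: agcacccgcagcTGCGGTctagctgagcag
Prmt7, chr8:106210879-106210908, minus strand: ggccggcaggacTGCGGTgttgcgcgtgaa
Setd1a, chr7:127777162-127777191, plus strand: ggatcagggtggTGCGGTccactctccggg
Sirt3, chr7:140882320-140882349, minus strand: agcctcacgggtTGCGGTcgtcaaggtaac

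The summits of 6 h replicates 1 and 2 lay 13 and 18 bp from the motif at Kdm2b, which encodes an H3K36 demethylase that binds unmethylated CpG. At Kmt5a they lay 13 and 31 bp away, with the 0 h replicate 2 summit at 8 bp. The distances were 31 and 21 bp at Prmt7 and 5 and 14 bp at Setd1a, which encodes a catalytic subunit of the H3K4 methyltransferase complex of the COMPASS family. Sirt3 gave 21 and 26 bp at 6 h, and its 0 h replicate 2 summit was 12 bp away. In the other 6 matches, at Hdac2, Hdac6, Setd4, Sirt1, Sirt2 and a second start of Kdm2b, at least 1 summit of the 6 h libraries was farther than 50 bp, up to 174 bp at Hdac2. The Kmt5a promoter is shown in full upstream of its start, beside that of Kmt2a, because it has the motif (in capitals, at -16 from the start) at its summits. It is from RefSeq GRCm38.p6, read 5′ to 3′ on the plus strand:
Kmt5a promoter, chr5:124439680-124439929, plus strand: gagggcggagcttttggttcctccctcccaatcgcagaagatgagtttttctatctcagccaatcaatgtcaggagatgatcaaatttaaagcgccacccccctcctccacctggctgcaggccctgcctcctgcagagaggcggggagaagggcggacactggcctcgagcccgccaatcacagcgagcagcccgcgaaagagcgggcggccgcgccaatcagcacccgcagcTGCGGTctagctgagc

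Part of the 6 h sites near the enzyme genes had a 0 h peak in the same place. When only the 6 h lists were merged, the replicates shared 121 sites, and of these 29 (24.0%, exact Clopper-Pearson 95% interval 16.7% to 32.6%, counting error only) overlapped a 0 h peak by at least 1 bp. For sites near other coding genes it was 2442 of 14452 (16.9%, interval 16.3% to 17.5%). The intervals overlap, and sites of 1 gene are not independent of each other, so no difference between the groups was shown. When the intersection had to cover 50% of each interval, the shares were 5.79% and 3.65%.

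Of 33 other histone modifiers outside the naming rule, 5 had peaks in both 0 h libraries and 30 (90.9%) in both 6 h libraries, against 4.13% and 53.3% of coding genes outside the enzyme set, the exceptions being Prdm9, Suv39h1 and Uty. The 5 were Crebbp, Dot1l, Hat1, Prdm2 and Smyd5. Hat1, an acetyltransferase for newly made histones, had folds of 6.47 and 11.1 at 0 h and 47.9 and 65.2 at 6 h, and Crebbp, which acetylates histones at enhancers, had 9.19 and 19.4 at 0 h and 29.0 and 35.7 at 6 h. Prdm2, an H3K9 methyltransferase, had folds of 4.96 and 13.1 at 0 h and 24.0 and 34.5 at 6 h, and Smyd5 had 6.44 and 8.56 at 0 h, then 23.9 and 30.5 at 6 h. The highest Dot1l peaks, with folds of 5.603, 9.86, 25.2 and 30.9 from 0 h replicate 1 to 6 h replicate 2, were also the highest peaks of Amh, so the windows of the H3K79 methyltransferase gene and of the granulosa hormone gene share them.

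Of 22 genes for subunits of the enzymes' complexes, 4 had peaks in both 0 h libraries and 21 (95.5%) in both 6 h libraries, all but Tada2a, against the same 4.13% and 53.3%. The 4 were Brpf1, Dpy30, Ing5 and Wdr5. Brpf1, the scaffold of the Kat6a complex, had folds of 12.5 and 18.9 at 0 h and 27.8 and 60.04 at 6 h. Wdr5 and Dpy30, core subunits of the MLL complexes, had 6.94 and 7.71, and 5.42 and 7.97, at 0 h. At 6 h Wdr5 had 15.9 and 26.9 and Dpy30 had 10.2 and 17.6. Ing5, a reader of H3K4 methylation, had 3.97 and 7.66 at 0 h, then 13.8 and 14.6 at 6 h. Of the other genes of the MLL complexes in these lists, Kmt2a had peaks in both 0 h libraries, Rbbp5, Kmt2c and Kmt2d in 0 h replicate 2 only, and Ash2l, Men1 and Kmt2b in neither.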

How the data were processed

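Per the submitters' processing notes, reads were aligned with Bowtie2 2.2.5 to mm10 and peaks called with MACS2; its settings are not given in the sources used here. The authors deposited 1 peak list per RUNX1 library, with a score, a fold (ratio of ChIP to local background), and −log10 p and −log10 q per peak; the deposited score was not used. Summits were assigned to RefSeq genes of GRCm38.p6 (see the opening) with Python 3.11.15, pandas 2.3.3, numpy 2.4.6 and scipy 1.17.1. Whole-number pileups were recovered from fold and −log10 p for 100% of 51515 peaks (misfit at most 0.005), a step tested on simulated data. The 5 time differences were tested over 4 libraries with exact permutation. Named genes were those with peaks in both 0 h libraries, the 15 highest at 6 h, those with no peak, the RUNX1 partners and those with most peaks; other names were added to fill out classes after values were seen. The members and lists were chosen with earlier results of these data known. Alternatives were other windows, nearest gene only, a q limit of 20 (−log10), equal peak numbers, leaving out libraries and, chosen after seeing the data, CpG-rich starts.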

Additional observations from a re-analysis of the deposited data

How the results depend on the processing

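The share of enzyme genes with a peak was above that of other coding genes in all 4 libraries under each of the 7 settings of window, nearest gene, q limit and equal peak number. With equal numbers of peaks per list the time difference in that share was -1.47 points and in its excess over other genes -1.22 points, both reversed, and 7 genes had peaks in both 6 h libraries, 2 in these alone and 52 in none. With a −log10 q of at least 20, the difference in median percentile was reversed, at -9.35, and 2 genes had peaks in both 0 h libraries and 5 in none. The count with no peak was 5 within 1 kb, 11 inside the gene only (where 5 had peaks in both 0 h libraries) and 7 by nearest gene. Sites overlapping a 0 h peak were 5.79% at 50% overlap, and the start difference was 14.9 points in CpG-rich genes; the cause was not tested.

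Leaving out 1 library at a time gave time differences of 58.1 to 81.6 points (share), 15.1 to 28.0 points (excess), -0.52 to -0.40 (log2 density ratio), -33.7 to -24.5 points (within 1 kb) and 1.94 to 18.1 (percentile). It gave 8 to 24 genes in both 0 h libraries (24 without 0 h replicate 1), 61 to 66 in both 6 h libraries, 37 to 53 in these alone, 2 to 7 in none (7 without 6 h replicate 2), and 37.7 to 39.8 points for starts. The labels do not say whether same-numbered libraries share mice or a day. The deviations of same-numbered libraries correlated at r = -0.0238 over genes. This cannot settle the question, because most genes had no peak at 0 h. The replicate block left the differences at 69.9, 21.6, -0.46, -29.1 and 10.03, with exact sign-flip p = 0.5 for each except the percentile (exact p = 1), which 2 pairs cannot improve. The recovered background was of like size in all lists (2.13 to 2.77 reads); a gene without a peak may still hold a site below the p-value limit.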
